A study of Homo sapiens with 4 samples.

Results

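Lysosomal genes were examined as a set of 46, chosen by name: 23 acid hydrolases, 4 soluble cofactors and carriers, 8 membrane proteins, 8 genes of the proton pump and 3 transcriptional regulators. The choice was made with earlier results of these data known. All 46 had a row in the count table, which held 67017 genes, and 43 of them had enough reads to be tested. The cells were OCI-AML3, an established human acute myeloid leukaemia line with the cytoplasmic NPM1 mutation. They carried the retroviral vector pMSCV-PIG either with the long noncoding RNA LONA, transcribed from an RNA polymerase II promoter (PIG-LONA), or without an insert (PIG-EMPTY). In both groups the vector also holds a PGK promoter that drives puromycin resistance and GFP, and cells were sorted on GFP. There were 2 separately transduced cultures and so 2 libraries per group, 4 in all. The result therefore concerns forced expression in 1 cell line, and the level of LONA itself was not analysed here. The study's title concerns a delay of myeloid differentiation, and the comparison asks how these genes differ between the vectors.

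Lysosomes are acidic organelles that break down proteins, glycans, lipids and nucleic acids delivered by endocytosis, phagocytosis and autophagy. A V-type proton pump acidifies the lumen, soluble hydrolases do the digestion with the help of small activator proteins, and heavily glycosylated membrane proteins line the organelle and carry products out. TFEB, TFE3 and MITF are related transcription factors that bind E-box sequences, among them the longer CLEAR element found near the start of many lysosomal genes. Monocytes and macrophages are rich in lysosomes.

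Promoter sequences show where that element lies in this set. RefSeq (GRCh38.p14) gave a window of 300 bases, from 250 before to 50 after the start, for 32 of the 46 genes, with the first listed window taken for each gene. The searched motifs were the core CACGTG of the E-box, the form TCACGTGA, which adds a base on each side, and a longer CLEAR-like form with GT before the core and AC after it. Each reads the same on both strands, and the longer ones hold the shorter. The core was present in 7 of the 32 windows (21.9%) against 7.43% of 27305 promoters, TCACGTGA in 5 (15.6% against 1.04%) and the longest form in 2 (6.25% against 0.381%). CLEAR is already known from many lysosomal genes, and the promoters were not matched for base composition, so these shares are a description. By class, the core was found in 4 of 7 membrane protein windows, 2 of 16 hydrolase windows, 1 of 3 proton pump windows, 0 of 3 windows of soluble cofactors and carriers, and 0 of 3 regulator windows. LAMP1 stood out with 6 cores, the first bases of which lie at -192, -176, -159, -142, -28 and -1 from the start. Shown here, with each core in capitals, are the windows before the start of LAMP1 (chr13:113297039-113297243, plus strand, ending 5 bases into the transcript), MCOLN1 (chr19:7522524-7522623, plus strand) and GAA (chr17:80101481-80101580, plus strand). FUCA1 (chr1:23868291-23868390, minus strand) is shown because it changed and holds no core.
LAMP1: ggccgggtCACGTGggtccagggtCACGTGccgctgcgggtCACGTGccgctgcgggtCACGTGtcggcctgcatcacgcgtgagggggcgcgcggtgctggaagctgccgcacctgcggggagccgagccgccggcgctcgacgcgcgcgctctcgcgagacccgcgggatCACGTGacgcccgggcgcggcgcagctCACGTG
MCOLN1: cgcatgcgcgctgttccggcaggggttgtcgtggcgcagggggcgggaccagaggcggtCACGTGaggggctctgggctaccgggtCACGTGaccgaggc
GAA: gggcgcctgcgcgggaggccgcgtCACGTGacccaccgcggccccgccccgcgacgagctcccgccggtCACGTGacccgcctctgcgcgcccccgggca
FUCA1: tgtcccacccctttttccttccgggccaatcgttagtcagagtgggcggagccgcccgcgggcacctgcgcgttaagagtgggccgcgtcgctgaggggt
For each of the other windows with a core, 1 core is given with 7 bases on either side, to show how the flanks differ. They are ATP6V0D1 (chr16:67481204-67481223, minus strand), CLN3 at the start itself (chr16:28492063-28492082, minus strand), CD63 (chr12:55729177-55729196, minus strand) and NEU1 (chr6:31862935-31862954, minus strand).
ATP6V0D1: ttatggtCACGTGaggcgct
CLN3: gtgctgtCACGTGatccgac
CD63: taggggcCACGTGgccctgg
NEU1: gcgtgatCACGTGggaggag
The CLN3 window holds a second core, at -30, which is not shown. TCACGTGA was found in LAMP1, MCOLN1, GAA, ATP6V0D1 and CLN3, the longest form in MCOLN1 and GAA, and the core alone in CD63 and NEU1. A match is a sequence description and says nothing of binding in these cells.

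Levels of the 45 genes with any read ran over more than 3 orders of magnitude. Levels are given as CPM, read counts scaled to 1 common library size with TMM factors, and are divided here by exon length in kilobases so that genes can be compared. A pair of soluble cofactors and 3 membrane proteins led the order. GRN, the precursor of the granulins, was highest at 77.5 CPM per kilobase over the 4 libraries (74.1 to 81.1). PSAP, the precursor of the saposins that activate sphingolipid hydrolases, followed at 63.0, with a library range of 59.5 to 66.2 that met that of CD63, a tetraspanin of late endosomes and lysosomes, at 56.6 (51.1 to 61.3). LAMP2 (41.4) and LAMP1 (39.7), the main glycoproteins of the lysosomal membrane, came next with overlapping ranges. The highest hydrolases were PPT1, which removes palmitate from proteins, at 31.4, and the tripeptidyl peptidase TPP1 at 25.1, with the pump subunit ATP6V1B2 at 28.6 between them. The length is that of all annotated exons joined, which gives genes with a long joined exon length, such as HEXA (1.72), a low value per kilobase.

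**Figure D1:**
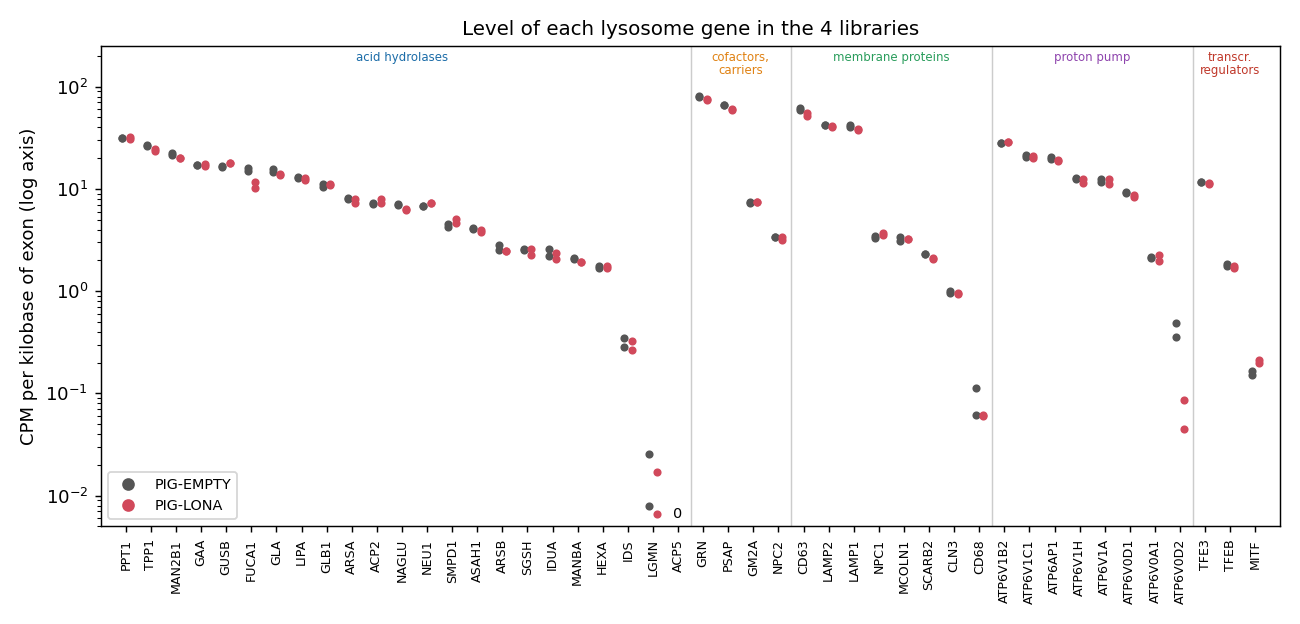
Level of each gene in CPM per kilobase of exon (log axis), by class, with 1 point per library (grey PIG-EMPTY, red PIG-LONA) and ACP5 marked at 0. The groups lie nearly on top of each other for most genes, whereas ATP6V0D2 drops from a mean of 0.424 to 0.0653 CPM per kilobase.

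ACP5, LGMN and CD68 had too few reads to be tested. ACP5, the tartrate-resistant acid phosphatase of osteoclasts and macrophages, had 0 counts in each library, which allows a level of up to 0.101, 0.0923, 0.100 and 0.078 CPM (3 counts, in PIG-EMPTY 1 and 2 and PIG-LONA 1 and 2, for counting error only). LGMN, an asparaginyl endopeptidase, had 3 and 1 counts against 2 and 1. CD68, a macrophage lysosomal glycoprotein, had 4 and 8 counts against 4 and 5. Of the exon bases of CD68, 81.7% are shared with another annotated gene on the same strand, where reads may have been left unassigned, so its low count is no sure measure of its level. Other shared stretches touched PPT1 (23.4% of its exon bases, with CAP1 on the opposite strand, which had 72589 reads over the 4 libraries against 20881) and CLN3 (25.2% on the same strand with a gene of 7 reads, and 5.8% with APOBR on the opposite strand, which had 21116 reads against 1238). ATP6V0D2 (16.7%, opposite strand, a gene with 0 reads) and IDS (16.5%, same strand) also share exon bases, as do further genes over smaller parts.

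PIG-LONA cells had slightly lower levels of several lysosomal genes, and 5 of the 43 tested genes fell while 0 rose. The 5 were FUCA1, TPP1, PSAP, CD63 and ATP6V0D2. Across all 15918 genes tested, 6.43% passed the threshold, 3.50% lower and 2.93% higher in PIG-LONA, against 11.6% of the lysosomal genes, all of them lower. The tested lysosomal genes had a median level of 35.4 CPM, against 18.5 CPM for all tested genes. These shares and those below were not matched for level, although precision differed with depth, and the part of level in them was not tested. The set was also chosen with earlier results of these data known, so the shares are a description. The threshold was an adjusted p under 0.05 (Benjamini-Hochberg) in the quasi-likelihood test of edgeR. At an unadjusted p under 0.05, 11 were lower and 1 was higher, and limma-voom and DESeq2 also had 0 higher. Log2 fold changes were below 0 for 32 of the 43 genes (74.4%), compared with 49.6% of all genes, and their median was -0.06 against 0.001. Both PIG-LONA libraries lay below both PIG-EMPTY libraries for 21 of the 43 (48.8%, against 24.4% of all genes), and above them for 7 (23.7% of all genes); in either direction the share over all genes was 48.0%. Because RNA of whole cultures was measured, fewer cells of a type and less RNA per cell cannot be told apart.

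Most of these differences were small. Summed over the 46 genes, the level was 3058 and 3074 CPM with the empty vector against 2948 and 2909 CPM with LONA, a change of -4.49% between the means. The 95% interval of the log2 fold change lay within a 1.25-fold change in either direction for 34 of the 38 genes that did not pass. With the first PIG-EMPTY library left out 3 genes fell, with the second left out 2, and with the first PIG-LONA library left out 9. Calls over all genes in those fits were 644, 466 and 2329, against 1024 with every library. DESeq2 called 2, CD63 and FUCA1, and edgeR on all genes with a read, unfiltered, also 2, ATP6V0D2 and FUCA1. FUCA1 passed in all 15 alternatives and ATP6V0D2 in the 14 that gave it an adjusted p.

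**Figure D2:**
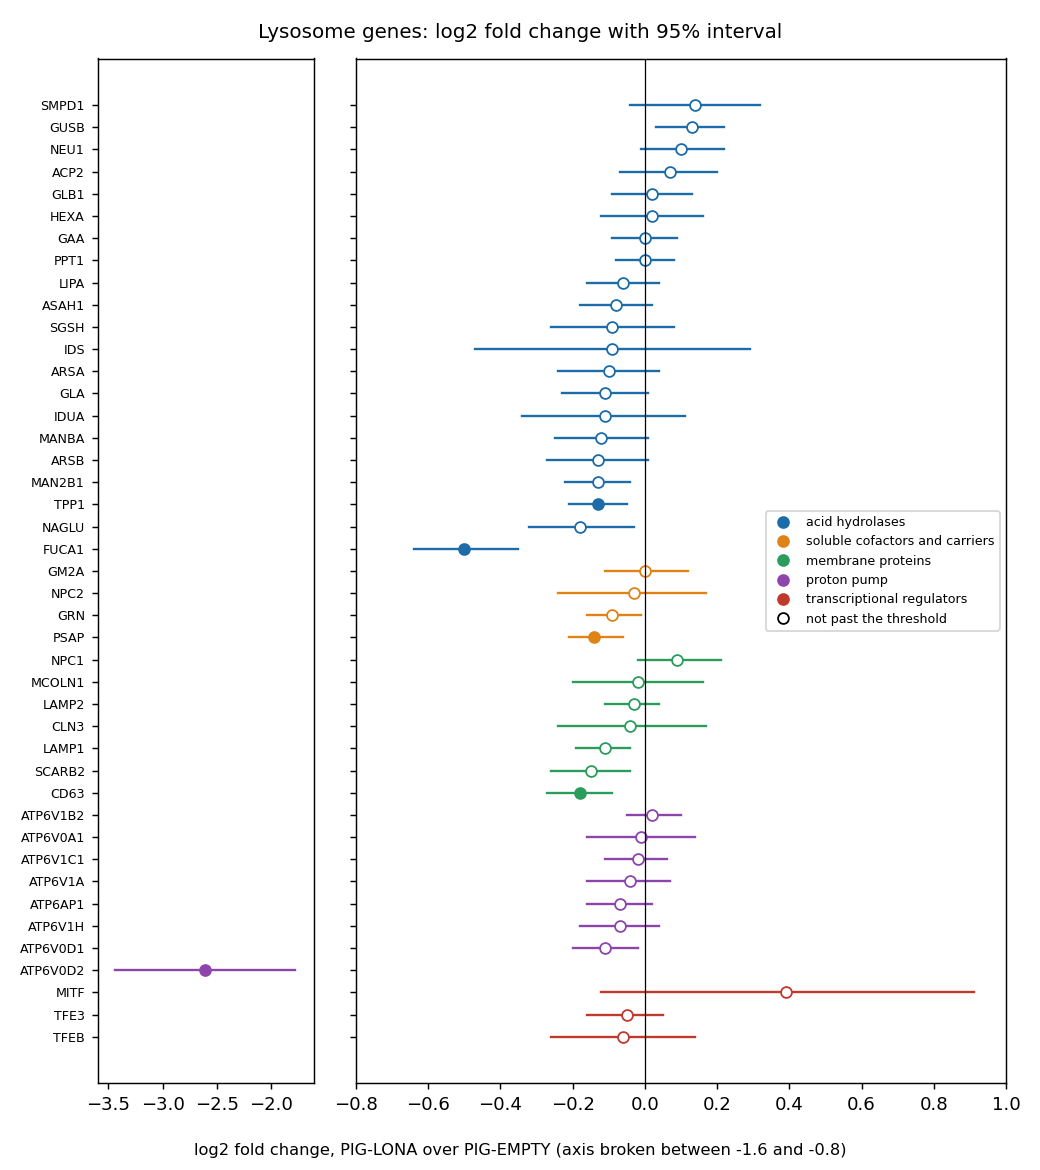
Log2 fold change of PIG-LONA over PIG-EMPTY for the 43 tested genes, grouped and coloured by class, with 95% intervals (lines); filled points passed the adjusted threshold. The axis is broken, with ATP6V0D2 at -2.61 in the left panel, FUCA1 at -0.50, and the remaining genes between -0.18 and 0.39.

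The hydrolase class had the clearest single change in a well-covered gene. FUCA1, which removes fucose from glycoproteins and glycolipids (ENSG00000179163.11, chromosome 1, 23845077 to 23868294), was at 30.5 and 32.8 CPM with the empty vector and at 20.7 and 23.8 CPM with LONA. Both LONA libraries were well below both controls (means 31.6 ± 1.6 and 22.3 ± 2.19, SD, n = 2). FUCA1 fell by 0.50 on the log2 scale (SE 0.07, 95% interval -0.64 to -0.35, edgeR adjusted p = 0.00012), a change of -29.2%, and its adjusted p was between 1.45e-11 and 0.0208 over the alternatives. FUCA2, a second fucosidase gene, on chromosome 6, was at 89.6 and 89.1 CPM against 96.2 and 91.6 CPM (log2 fold change 0.07, 95% interval -0.02 to 0.16). FUCA2 did not pass, and its interval leaves the sign undetermined.

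TPP1 (ENSG00000166340.17, chromosome 11, 6612763 to 6619485), mutated in a childhood neuronal ceroid lipofuscinosis, had 174 and 170 CPM in controls and 155 and 159 CPM with LONA. The groups did not overlap, and TPP1 fell by 0.13 on the log2 scale (SE 0.04, edgeR adjusted p = 0.0413), or -8.79%. Its adjusted p ranged from 0.00138 to 0.455, and the call was lost when either control library was left out, with DESeq2, and when genes were not filtered. PPT1, the most abundant hydrolase per length, was at 161 and 159 CPM against 162 and 158 CPM, with overlapping groups and a 95% interval of -0.08 to 0.08. GAA, the acid alpha-glucosidase whose promoter holds the longest form, had an interval of -0.09 to 0.09.

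The other 17 tested hydrolases did not pass, and their log2 fold changes ran from -0.18 (NAGLU, which degrades heparan sulfate) to 0.14 (SMPD1, acid sphingomyelinase). MAN2B1, the lysosomal alpha-mannosidase, was at 115 and 121 CPM against 108 and 108 CPM (log2 fold change -0.13 ± 0.04 SE, edgeR adjusted p = 0.0687). It passed under upper-quartile scaling and without either PIG-LONA library. GUSB, beta-glucuronidase, was at 65.1 and 66.2 CPM against 71.3 and 71.9 CPM (0.13 ± 0.04, edgeR adjusted p = 0.114), and passed as higher without PIG-LONA replicate 1. By substrate, the enzymes of sphingolipid breakdown had intervals that all held 0. GLA, alpha-galactosidase A, was at -0.11 ± 0.06 and ARSA, arylsulfatase A, at -0.10 ± 0.07, both with PIG-LONA libraries below the controls. ASAH1, acid ceramidase, was at -0.08 ± 0.05, GLB1, beta-galactosidase, at 0.02 ± 0.05 and HEXA, the alpha subunit of beta-hexosaminidase, at 0.02 ± 0.07. Among enzymes of glycosaminoglycan breakdown, NAGLU (95% interval -0.32 to -0.03) and GUSB (0.03 to 0.22) had intervals without 0, in opposite directions. Neither passed in the main fit. The intervals of the others named here held 0. SGSH (-0.09, 95% interval -0.26 to 0.08), IDUA (-0.11, -0.34 to 0.11) and IDS (-0.09, -0.47 to 0.29) overlapped between the groups, and ARSB, arylsulfatase B, did not (-0.13, -0.27 to 0.01). LIPA, the acid lipase, was at -0.06 ± 0.05 and ACP2, lysosomal acid phosphatase, at 0.07 ± 0.06. Over the class, 2 of 21 tested genes fell and 0 rose. That is 9.52% called, against 6.43% of all genes in either direction. Of the 21, 14 were below 0 and the median was -0.09.

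Among the soluble cofactors and carriers, PSAP (ENSG00000197746.14, chromosome 10, 71816298 to 71851375) fell and 3 of 4 did not pass. PSAP was at 213 and 214 CPM in controls and 196 and 193 CPM with LONA, a separation larger than the spread within either group. Its log2 fold change was -0.14 ± 0.04 (SE, edgeR adjusted p = 0.0279), or -9.0%, with adjusted p between 0.000148 and 0.385 and the same losses as TPP1. GRN was at 289 and 298 CPM against 281 and 273 CPM, also without overlap, but did not pass (-0.09 ± 0.04, edgeR adjusted p = 0.184) unless PIG-LONA replicate 1 was left out. GM2A, the activator for ganglioside breakdown, had 33.4 and 32.8 CPM against 33.0 and 33.3 CPM. NPC2, which binds cholesterol in the lumen, had 9.23 and 9.26 CPM against 9.35 and 8.76 CPM, and its 95% interval, -0.24 to 0.17, was wider at this lower count.

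Of 7 tested membrane proteins, CD63 fell. With this 1 gene the share called was 14.3%, against 6.43% of all genes in either direction. CD63 (ENSG00000135404.11, chromosome 12, 55725323 to 55729707) had 155 and 161 CPM in controls and 145 and 134 CPM with LONA, so that the groups stayed apart although each had a visible spread. The log2 fold change was -0.18 ± 0.04 (SE, edgeR adjusted p = 0.0138), or -11.6%. Its adjusted p ranged from 1.01e-08 to 0.311, and the call was lost when the second control library was left out and when genes were not filtered. An antisense gene covers 9.0% of its exon bases, with 764 reads in the 4 libraries against 19395 for CD63.

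LAMP1 and LAMP2 did not pass. LAMP2 was at 232 and 231 CPM against 225 and 227 CPM (log2 fold change -0.03 ± 0.04), and LAMP1, with its 6 cores, at 242 and 232 CPM against 223 and 214 CPM (-0.11 ± 0.04, edgeR adjusted p = 0.0836). The groups did not overlap for either gene. LAMP1 passed under upper-quartile scaling and without PIG-LONA replicate 1. SCARB2, the receptor that carries glucocerebrosidase to lysosomes, was at -0.15 ± 0.05 (edgeR adjusted p = 0.103), and NPC1, the cholesterol exporter that works with NPC2, at 0.09 ± 0.06. CLN3 and the calcium channel MCOLN1 were at -0.04 and -0.02.

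The proton pump showed the largest fold difference of the set, in an isoform present at a low level. ATP6V0D2 encodes subunit d2 of the membrane sector, known from osteoclasts and macrophages (ENSG00000147614.4, chromosome 8, 85987323 to 86154228). Its counts were 44 and 35 in controls and 4 and 10 with LONA, which is 1.48 (exact Poisson 95% interval 1.07 to 1.98), 1.08 (0.75 to 1.5), 0.134 (0.0364 to 0.342) and 0.260 CPM (0.125 to 0.478). The intervals, which cover counting error only, did not meet between the groups. ATP6V0D2 fell by 2.61 on the log2 scale (SE 0.40, 95% interval -3.44 to -1.78, edgeR adjusted p = 0.000253). It passed the low-count filter through the PIG-EMPTY libraries alone, where it is high, and it was also called when genes were not filtered. DESeq2 gave it no adjusted p, and over the alternatives that did the log2 fold change was -3.21 to -2.27 and the adjusted p 2.47e-06 to 0.0162.

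ATP6V0D1, the broadly expressed subunit d1 that occupies the same position, was far more abundant. Its level was 76.1 and 74.7 CPM against 70.8 and 69.2 CPM, a log2 fold change of -0.11 ± 0.04 that did not pass (edgeR adjusted p = 0.180). Per kilobase, the reads of d2 came to 5.29 and 3.93 per 100 of d1 in controls and to 0.514 and 1.02 with LONA. The means were 4.61 ± 0.961 and 0.77 ± 0.361 (SD, n = 2 per group), with no overlap and an exact two-sided permutation p = 0.333, the smallest that 2 against 2 can give. Subunit d2 was thus the minor d isoform at RNA level in every library.

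The other pump genes were close to level. ATP6V1B2, a subunit of the cytosolic ATP-hydrolysing sector, was at 222 and 221 CPM against 226 and 225 CPM (log2 fold change 0.02 ± 0.04). ATP6V1C1, which links that sector to the stator, was at 124 and 121 CPM against 118 and 123 CPM, and its groups overlapped. ATP6AP1, ATP6V0A1, ATP6V1A and ATP6V1H were between -0.07 and -0.01, and all 7 genes that did not pass had intervals within a 1.25-fold change. ATP6V1H passed as lower without PIG-LONA replicate 1. Without ATP6V0D2 the median of all lysosomal genes was still -0.06, and 4 of 42 fell. That is 9.52% called, against 6.43% of all genes in either direction.

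**Figure D3:**
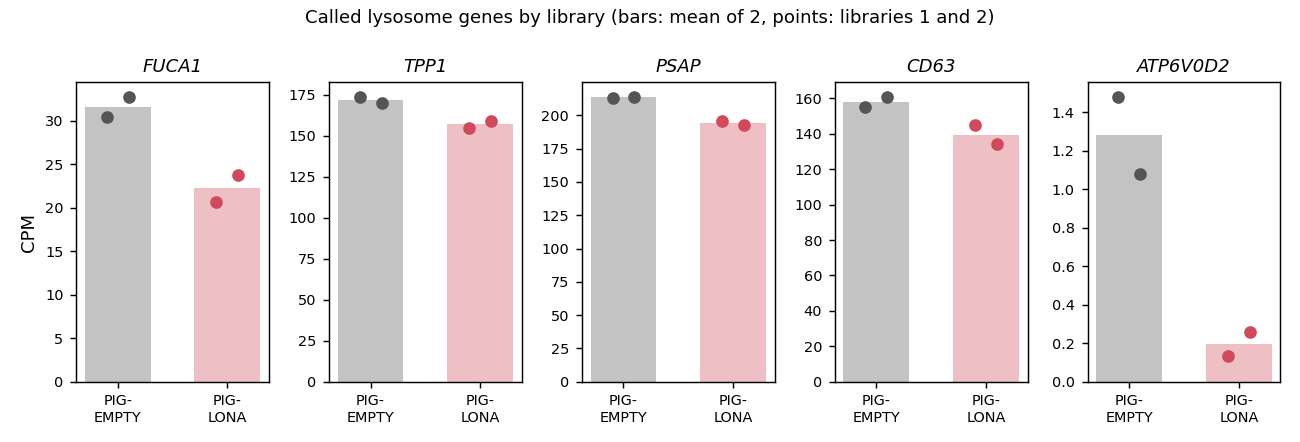
CPM of the 5 lysosomal genes past the threshold, 1 panel per gene with its own axis from 0; points are the libraries and bars the mean of 2. In each panel both PIG-LONA points lie below both PIG-EMPTY points, by a small margin in TPP1, PSAP and CD63 and by a wide one in ATP6V0D2.

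None of the 3 regulators passed, with 0 at an unadjusted p under 0.05 and 0 by DESeq2 or limma-voom. TFEB was at 10.3 and 9.94 CPM against 9.51 and 9.90 CPM (log2 fold change -0.06, 95% interval -0.26 to 0.14). TFE3 was the most abundant of them, at 49.5 and 50.7 CPM against 47.8 and 48.6 CPM (-0.05, -0.16 to 0.05). MITF, the melanocyte and osteoclast family member, had 35 and 35 counts against 43 and 58, or 1.17 and 1.08 CPM against 1.44 and 1.51 CPM (0.39, -0.12 to 0.91). The groups did not overlap for any of the 3, as for 48.0% of all tested genes in either direction. The differences of TFEB and TFE3 were small, and the MITF interval was wide. These are RNA levels, whereas TFEB and TFE3 are known to be controlled by phosphorylation and entry into the nucleus, which was not measured.

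The fold changes can also be set out by the E-box core, as a description. The 7 tested genes with a core had a median log2 fold change of -0.04 (range -0.18 to 0.10), 6 of them below 0 and 1 past the threshold, namely CD63. The 23 without one had a median of -0.06 (-0.50 to 0.39), 15 below 0 and 2 past the threshold, FUCA1 and TPP1. The other 13 tested genes, PSAP and ATP6V0D2 among them, had no window and are in neither group. The membrane protein and regulator classes had medians of -0.04 and -0.05, the pump and the cofactors and carriers -0.06, and the hydrolases -0.09. Differences between classes were not tested.

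The rest of the pathway was followed in 159 further genes, of which 143 were tested, 8 fell and 4 rose, with a median of -0.01. The share called, 8.39%, was near the 6.43% of all genes, so the genes below are given for their own values and not as a change of the pathway. Among other hydrolases 2 of 26 fell and 1 rose. PLD3, a nuclease of the phospholipase D family, was at 370 and 381 CPM against 327 and 315 CPM (log2 fold change -0.23 ± 0.04 SE, edgeR adjusted p = 0.000381) and passed in all 15 alternatives. PLA2G15, a lysosomal phospholipase, fell by 0.22 ± 0.05 and RNASET2, an RNase on chromosome 6, rose by 0.21 ± 0.04. Of 30 other membrane proteins and transporters, SLC15A3 (-0.39 ± 0.08), a peptide and histidine transporter, and LAPTM5 (-0.13 ± 0.03) fell, and SLC17A5 (0.31 ± 0.08), the sialic acid exporter, and CD164 (0.20 ± 0.04), a sialomucin, rose.

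Sorting genes fell in 1 of 14 cases, which was SORT1, encoding the sorting receptor sortilin (8.89 and 9.63 CPM against 6.58 and 6.60 CPM, log2 fold change -0.49 ± 0.11, edgeR adjusted p = 0.00605). In autophagy, WIPI1 fell (-0.35 ± 0.09) and VPS41, a subunit of the HOPS tethering complex, rose (0.19 ± 0.06) among 28. Among 13 other pump subunits and 20 genes of lysosomal nutrient sensing 0 passed in edgeR, DESeq2 or limma-voom, with 1 and 3 at an unadjusted p under 0.05. The smallest p values there were those of ATP6V0B (-0.08 ± 0.04) and LAMTOR2 (-0.14 ± 0.04, edgeR adjusted p = 0.0769). PLA2G15, SLC17A5, SORT1 and WIPI1 lost their calls without PIG-EMPTY replicate 2, as did CD164, LAPTM5 and VPS41. RNASET2, LAPTM5 and VPS41 lost theirs when the first control library was left out, and VPS41 also without PIG-LONA replicate 2. The VPS41 call held in 6 of 15 alternatives and was lost with limma-voom, DESeq2, scaling to library totals and no filter as well. PLA2G15, SLC17A5, SORT1 and WIPI1 also lost their calls with DESeq2 and with no filter, and LAPTM5 with no filter.

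Most of the pathway genes that rose lie on chromosome 6. Its genes as a whole had a median log2 fold change of 0.169, against -0.004 on the other chromosomes. RNASET2, SLC17A5 and CD164 are on it, which is 3 of the 4. Of tested pathway genes, 3 of 12 on chromosome 6 rose, and 1 of 131 on the others. With the chromosome's median shift removed from each library, 0 pathway genes rose. Removing the shift lowers the fold changes of chromosome 6 genes by construction, and its part in these rises was not tested. VPS41, on chromosome 7, also lost its call with the shift removed, having passed narrowly in the main fit (edgeR adjusted p = 0.0456). In the lysosomal set, TFEB and the sialidase NEU1 lie on chromosome 6. NEU1 was at 32.8 and 32.8 CPM against 35.2 and 35.2 CPM (0.10 ± 0.06), and its log2 fold change was -0.07 with the shift removed, where TFEB was at -0.23. Neither passed with or without it.

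**Figure D4:**
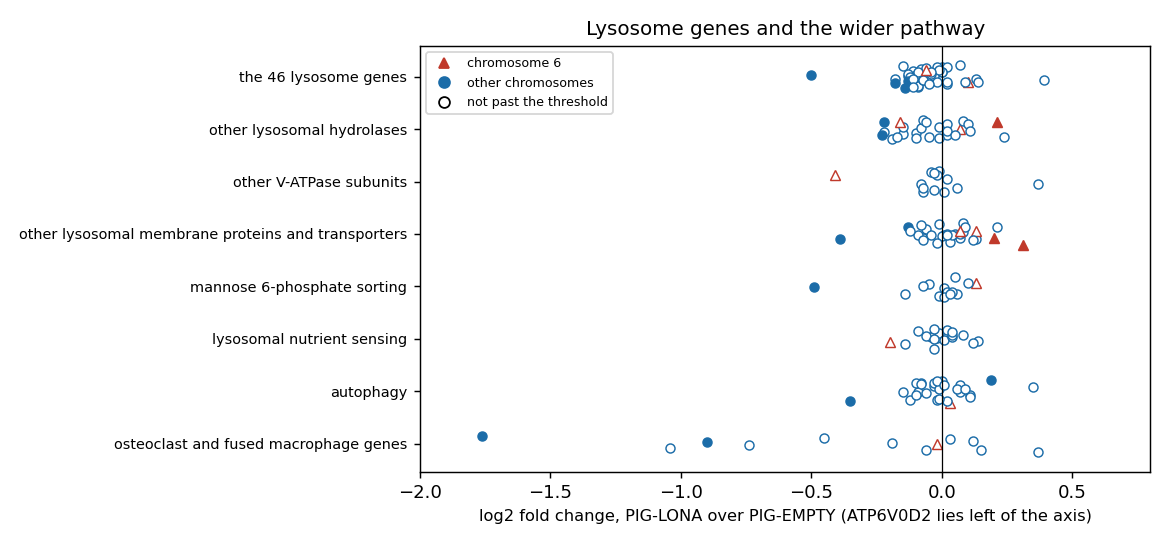
Log2 fold change of PIG-LONA over PIG-EMPTY for the tested lysosomal genes and 7 lists of the wider pathway (rows; vertical scatter within a row is arbitrary), with chromosome 6 genes as triangles and filled symbols past the threshold. ATP6V0D2, at -2.61, is outside the axis; 3 of the 4 filled symbols to the right of 0 are on chromosome 6.

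Genes of osteoclasts and fused macrophages, the setting in which ATP6V0D2 and ACP5 are best known, form one of these lists. Of 17, 12 were tested, 2 fell and 0 rose (edgeR; 4 lower and 1 higher at an unadjusted p under 0.05, 0 higher with limma-voom or DESeq2). The share called was 16.7%, which rests on 2 genes, against 6.43% of all genes in either direction. The gelatinase gene MMP9 fell by 0.90 ± 0.05, and the receptor gene CLEC5A, at 1.34 and 0.584 CPM against 0.300 and 0.260 CPM, fell by 1.76 ± 0.44. CLEC5A passed the low-count filter through the PIG-EMPTY libraries alone, and its log2 fold change ran from -2.26 to -1.06 over the alternatives. The CLEC5A call was lost when the first control library was left out and when genes were not filtered. The receptor for RANK ligand, TNFRSF11A, had a 95% interval of -0.19 to 0.07 and TREM2, on chromosome 6, one of -0.20 to 0.17.

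Markers of monocytes and macrophages were also lower with LONA. Of 20 such markers, 15 were tested, 12 fell and 0 rose, with a median log2 fold change of -0.70. The share called was 80.0%, against 6.43% of all genes in either direction. The summed level of the 20 markers was 498.4 and 499.1 CPM in controls and 299.8 and 314.6 CPM with LONA. MSR1 and C1QB were at 0 in all libraries. That change of -38.4% compares with -4.49% for the 46 lysosomal genes, and its part in their differences was not tested. The markers of the line itself (MPO, CD33, SPI1, CEBPA, NPM1, FLT3, HOXA9, MEIS1, PTPRC and CD34) were all detected, CD34 with only 24 to 40 counts. Of these 10, FLT3 rose (log2 fold change 0.44 ± 0.05 SE, edgeR adjusted p = 2.05e-05) and SPI1 fell (-0.13 ± 0.04, edgeR adjusted p = 0.0346). The other 8 did not pass. CD3D, CD3E, CD3G, CD2, MS4A1, EPCAM and the globin genes were at 0, and the T and NK cell list was carried by NCAM1 (241 to 262 CPM). Total counts were 29819572 and 32350832 for PIG-EMPTY, 30181550 and 38358442 for PIG-LONA, and mitochondrial transcripts took 6.32% to 7.10% of them.

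Precision differed with depth. Among tested lysosomal genes with a mean of over 2000 counts the SE of the log2 fold change was 0.036 to 0.054, between 500 and 2000 counts 0.048 to 0.081, and under 500 counts 0.086 to 0.397. SCARB2 (-0.15) and NAGLU (-0.18) in the middle class did not pass, and neither did MAN2B1 (-0.13) in the highest.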

How the data were processed

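Poly(A) RNA of 4 cultures was sequenced with a directional library kit (NEBNext Ultra II), per the labels' protocols. The authors deposited raw read counts per Ensembl gene, 1 column per library; the build hg38 and the tools STAR 2.5, FastQC 0.11.4 and HTSeq are listed in the submitters' processing notes. Which annotation and strand option HTSeq was run with is not given in the sources used here, so reads of overlapping genes cannot be assigned with certainty. Symbols were matched for 60357 of 67062 rows (67017 without the copies in the pseudoautosomal region of Y), and positions and exon lengths came from GENCODE release 29 (GRCh38, the same assembly as hg38).

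The test was that of edgeR 4.0.16 (R 4.3.3; TMM, filterByExpr with minimum count 10 and minimum total 15, glmQLFit with the legacy form off, glmQLFTest, two-sided), with adjustment over all 15918 genes tested. SE is the size of the log2 fold change over the square root of F. The biological coefficient of variation was 2.95%, and replicates differed beyond sampling noise (chi-square per gene 1.81 for PIG-EMPTY, 4.67 for PIG-LONA), so all 4 were counted. P-values measure the spread between transductions of 1 line. The procedure was tested on simulated counts with known changes. It recovered 44% of 1.2-fold, 76% of 1.5-fold, 87.8% of 2-fold and 100% of 4-fold changes, and 5.06% of its calls were false. Many changes of 1.2-fold or less would thus be missed. The simulated counts had the same spread in both groups, whereas the real replicates differed more in PIG-LONA. The simulation therefore cannot give the share of false calls under that unequal spread. DESeq2 1.42.0 and limma 3.58.1 served as alternatives, with other scalings and filters, the replicate block, each library left out, the chromosome 6 shift removed and adjusted p under 0.01.

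Values in every library are given for genes of the set past the threshold, the 2 most abundant per class, paralogs of called genes and the regulators; the remaining named genes were added after their values were seen. Pathway lists name up to 4 called genes. The members and lists were chosen with earlier results of these data known.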

Additional observations from a re-analysis of the deposited data

How the results depend on the processing

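The number of lysosomal genes that fell, 5, was 5 to 7 under other scalings, limma-voom, the legacy edgeR test, the CPM filter and the chromosome 6 correction. It was 2 with DESeq2, 2 with no filter on low counts and 2 at adjusted p under 0.01, and 2 to 9 with single libraries left out, where calls over all genes ran from 466 to 2329 against 1024. The number that rose, 0, was 0 to 1 with single libraries left out. Falling pathway genes, 8, numbered 4 with DESeq2, 3 without the filter, 4 at adjusted p under 0.01 and 5 to 17 with single libraries left out. Rising pathway genes, 4, numbered 2 with DESeq2, 2 without the filter, 2 at adjusted p under 0.01, 0 with the chromosome 6 shift removed and 1 to 8 with single libraries left out. The log2 change of the d2 to d1 ratio between the groups, -2.58, was -3.16 to -2.17 with single libraries left out. Each fit without a library assumes that the lone sample varies like the other group; the cause of these shifts was not tested. With the replicate number as a block the lysosomal count was 5, with the same 5 genes, and the pathway counts were 9 and 4. The labels do not say that a number marks a shared batch, and deviations of same-numbered libraries correlated at 0.029, so the numbers were not taken as pairs.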
